A study of Mus musculus with 9 samples.

Results

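The genes described here are the 52 protein-coding mouse genes that use, make or regenerate glutathione, the companion thioredoxin and peroxiredoxin genes, and the NRF2 pathway genes that control them, out of 56748 genes in the table. They were picked by name, with no threshold on a measured value, but with earlier results of these data known. The set held 23 soluble glutathione S-transferases (GSTs), 3 microsomal GSTs, 8 glutathione peroxidases, 6 peroxiredoxins, 5 genes of glutathione synthesis and reduction (Gclc, Gclm, Gss, Gsr, G6pdx), 3 of the thioredoxin system (Txn1, Txnrd1, Srxn1), Hmox1 and Nqo1, and the regulators Nfe2l2 and Keap1. Messenger RNA was read by bulk RNA-Seq in Hepa1-6, an established mouse hepatoma cell line, in 3 groups of 3 libraries. Cells were given 37 μg/mL lefamulin or 37 μg/mL tiamulin for 2 days, or were left untreated according to the labels (the methods of the study describe the control as vehicle-treated). Both drugs are pleuromutilin antibiotics, which bind the bacterial ribosome, and they differ in the side chain carried by the shared core. The libraries are numbered 1 to 3 in each group, and nothing in the sources used here says whether they came from separate cultures, so the tests measure only the spread between these libraries, which may be technical.

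Libraries held between 15568887 and 18008105 counts, of which these 52 genes took between 0.366% and 0.414%. Library 2 of the tiamulin group stood apart from its 2 companions: a chi-square per degree of freedom over genes was 18.1 and 20.6 for its pairs, against 2.88 to 7.57 for the other pairs within groups. Its deviation from its group followed the GC content of the genes (Spearman's rho 0.54 across 14242 genes, which are not independent, against -0.41 to 0.34 in the other libraries). The 3 deviations of a group sum to 0 for each gene, so the -0.38 and -0.41 of tiamulin 1 and 3 are tied to library 2. Of 9 hepatocyte markers, Alb, Afp, Trf, Apob, Hnf4a and Foxa2 were expressed and Ttr, Apoa1 and Apoh were at or near 0; the summed level was 2409 to 2660.0 CPM (counts scaled to the size of the library) in control and lefamulin libraries and 1921 to 2074 CPM in tiamulin libraries. Of 6 hepatocyte markers tested, 1 rose and 2 fell under lefamulin and 3 fell under tiamulin (adjusted p < 0.05, fit below). The summed level of 9 leukocyte markers, mostly Cd68, was 12.2 to 12.4 CPM in controls, 13.3 to 19.6 CPM under lefamulin and 17.0 to 22.5 CPM under tiamulin, with Adgre1 and Cd3e at 0 in every library. Of 5 leukocyte markers tested, 2 rose and 1 fell under each drug. Their log2(fold change) ran from -1.33 to 2.45 under lefamulin and from -1.67 to 2.12 under tiamulin. Over all tested genes 7.09% rose and 6.00% fell under lefamulin, and 9.08% and 7.34% under tiamulin. Of 7 fibroblast markers Dcn alone carried the sum, 1474 to 1556 CPM in controls, 1136 to 1188 CPM under lefamulin and 1028 to 1117 CPM under tiamulin. The 6 endothelial markers, mostly Pecam1, summed to 1.27 to 1.72 CPM in controls, 2.59 to 4.05 CPM under lefamulin and 3.03 to 4.53 CPM under tiamulin, and Pecam1 was raised by 1.29 (adjusted p = 0.0101) and 1.39 (adjusted p = 0.0046) on the log2 scale. The part of these differences in the results below was not tested, and in bulk RNA a change in the make-up of the cells and a change in RNA per cell cannot be told apart.

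Glutathione is a small thiol made from glutamate, cysteine and glycine, and cells spend it to reduce peroxides through glutathione peroxidases and to tag reactive compounds through GSTs, a main detoxification route of the liver. Peroxiredoxins reduce peroxides in parallel and are themselves reduced by thioredoxin, which thioredoxin reductase recharges with NADPH. The transcription factor NRF2, encoded by Nfe2l2, is held at a low level by KEAP1, which marks it for degradation. When electrophiles or oxidants modify KEAP1, NRF2 escapes and binds antioxidant response elements near many of these genes.

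The core of that element was searched for as TGACNNNGC on both strands in the promoters of RefSeq (GRCm38.p6), from 250 bases before to 50 bases after each transcription start, because these genes are grouped by their link to NRF2. A promoter was listed for 45 of the 52 genes and 10 of them held the core (22.2%), against 3781 of 27025 genes with a listed promoter (14.0%). Some genes have several windows, and by window the core was in 10 of 59 (16.9%), against 4071 of 32851 (12.4%). The difference was not tested. The 10 stretches below run 5′ to 3′ in the direction of the core, with the core in capitals and 10 bases on each side. Their positions are on GRCm38.p6 and cannot be compared with the deposited gene positions given further on. A match describes the letters of the window and is not a binding site, and a window without the core says nothing about the sequence outside it.
Gclm (chr3:122245413-122245441, minus strand, core 134 bases before the start): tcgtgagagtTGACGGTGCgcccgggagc
G6pdx (chrX:74428919-74428947, plus strand, 57 before): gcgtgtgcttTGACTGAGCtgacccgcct
Txnrd1 (chr10:82859104-82859132, minus strand, 92 before): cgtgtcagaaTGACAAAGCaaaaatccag
Srxn1 (chr2:152105542-152105570, minus strand, within the transcribed bases): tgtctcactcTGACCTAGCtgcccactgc
Prdx1 (chr4:116685456-116685484, minus strand, 133 before): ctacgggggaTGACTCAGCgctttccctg
Nfe2l2 (chr2:75704885-75704913, minus strand, 240 before): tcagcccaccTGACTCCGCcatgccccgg
Mgst1 (chr6:138140461-138140489, minus strand, 56 before): ccccgcctccTGACCGTGCcaagccccgc
Gsta3 (chr1:21240454-21240482, plus strand, 121 before): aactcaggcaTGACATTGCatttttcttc
Gstm5 (chr3:107895802-107895830, plus strand, 42 before): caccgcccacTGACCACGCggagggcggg
Gstm7 (chr3:107931725-107931753, minus strand, 129 before): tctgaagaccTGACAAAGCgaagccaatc

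In control cells Txn1 and Prdx1 were the most abundant of these transcripts per length. By FPKM, the scale on which the authors divided counts by gene length and library total, Txn1, the thioredoxin that reduces protein disulfides, stood at 357 ± 23.0 (SD, n = 3). It was followed by Prdx1, a cytosolic peroxiredoxin, at 229 ± 5.31 FPKM, and by Gsto1, an omega class GST, at 146 ± 3.20 FPKM. Gstp1, Gpx4, Prdx6, Prdx3 and Prdx2 came next, from 120 down to 54.1 FPKM, and down to Prdx2 every control library of a gene lay above all control libraries of the next. This order rests on the deposited gene lengths, which can exceed the longest coding transcript (4804 against 2387 bases for Prdx6, 1724 against 995 for Gpx4). Gstp1 and Gpx4 share 57.7% and 55.3% of their 75-base windows with near-identical copies (Gstp2 and Gpx4-ps2), so reads could be split among them. Nfe2l2 at 47.3 ± 0.715 FPKM did not separate from Txnrd1 at 47.7 ± 0.682 FPKM, and Hmox1 at 39.0 ± 2.23 FPKM did not separate from Gsr at 39.6 ± 0.332 FPKM. Nqo1, among the best known NRF2 targets, was low at 0.948 ± 0.454 FPKM and ranked 37th of the 52, and Gpx1, the major cytosolic glutathione peroxidase of liver, was at 1.92 ± 0.543 FPKM. A noncoding gene on the opposite strand overlaps 1210 of the 1441 bases of Gpx1. Whether counting used the strand is not given, so the level of Gpx1 could be affected.

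**Figure D1:**
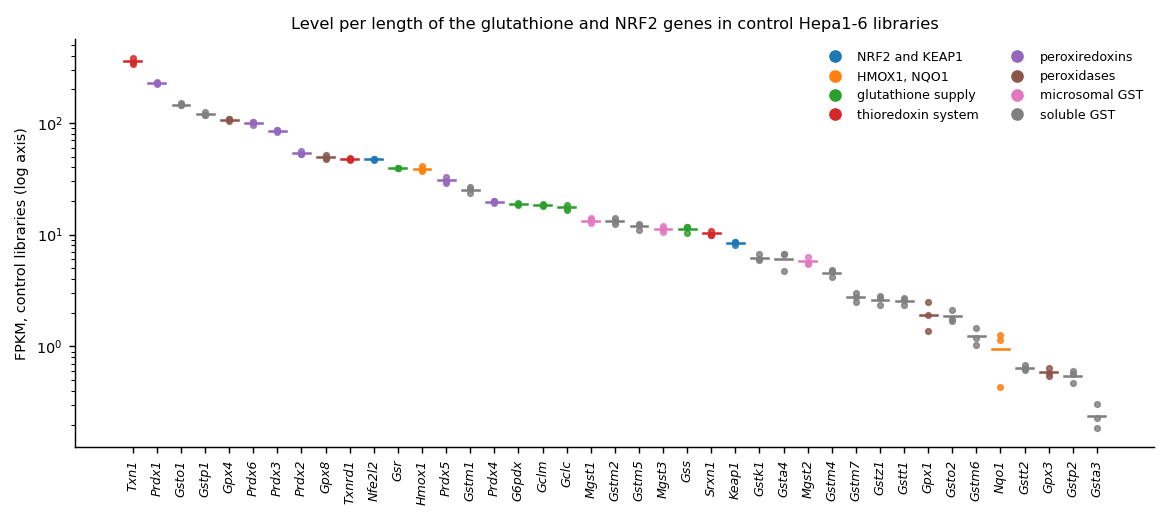
FPKM on a log axis in the 3 control libraries (points) with their mean (line) for the 41 tested genes, ordered by mean and coloured by role. Txn1 leads at 357 FPKM, and Nqo1 and Gpx1 lie in the low tail, at 0.948 and 1.92 FPKM.

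Both drugs moved some of these genes up and others down, and each drug was compared with the same 3 control libraries. Of the 52 genes, 41 had enough counts to be tested in an edgeR quasi-likelihood fit of all 9 libraries, with a call at a Benjamini-Hochberg adjusted p value below 0.05. Under lefamulin 9 rose (7.09% of all 14510 tested genes were raised) and 5 fell (6.00% of all were lowered), and 27 were not called. Under tiamulin 6 rose (9.08% of all were raised) and 9 fell (7.34% of all were lowered), and 26 were not called. The median log2(fold change) of the 41 genes was 0.09 under lefamulin and 0.04 under tiamulin, beside 0.00 over all tested genes in each comparison. With an absolute log2(fold change) above 1 added, the threshold of the study for a differentially expressed gene (DEG), Gstm7 passed under lefamulin (DEGs were 1.51% of all tested genes), and Gstm7 and Hmox1 passed under tiamulin (1.78%). Without tiamulin 2, 12 rose and 8 fell under lefamulin, where 12.2% of all tested genes were raised and 12.7% lowered, and 9 rose and 10 fell under tiamulin, where 11.7% and 11.3% of all were. The 5 lowered under lefamulin became 2 without lefamulin 2 (2.86% of all were lowered) or without lefamulin 3 (3.31% of all). With offsets for gene length and GC content the split under lefamulin was 11 raised and 12 lowered, beside 11.4% raised and 12.5% lowered over all tested genes.

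**Figure D2:**
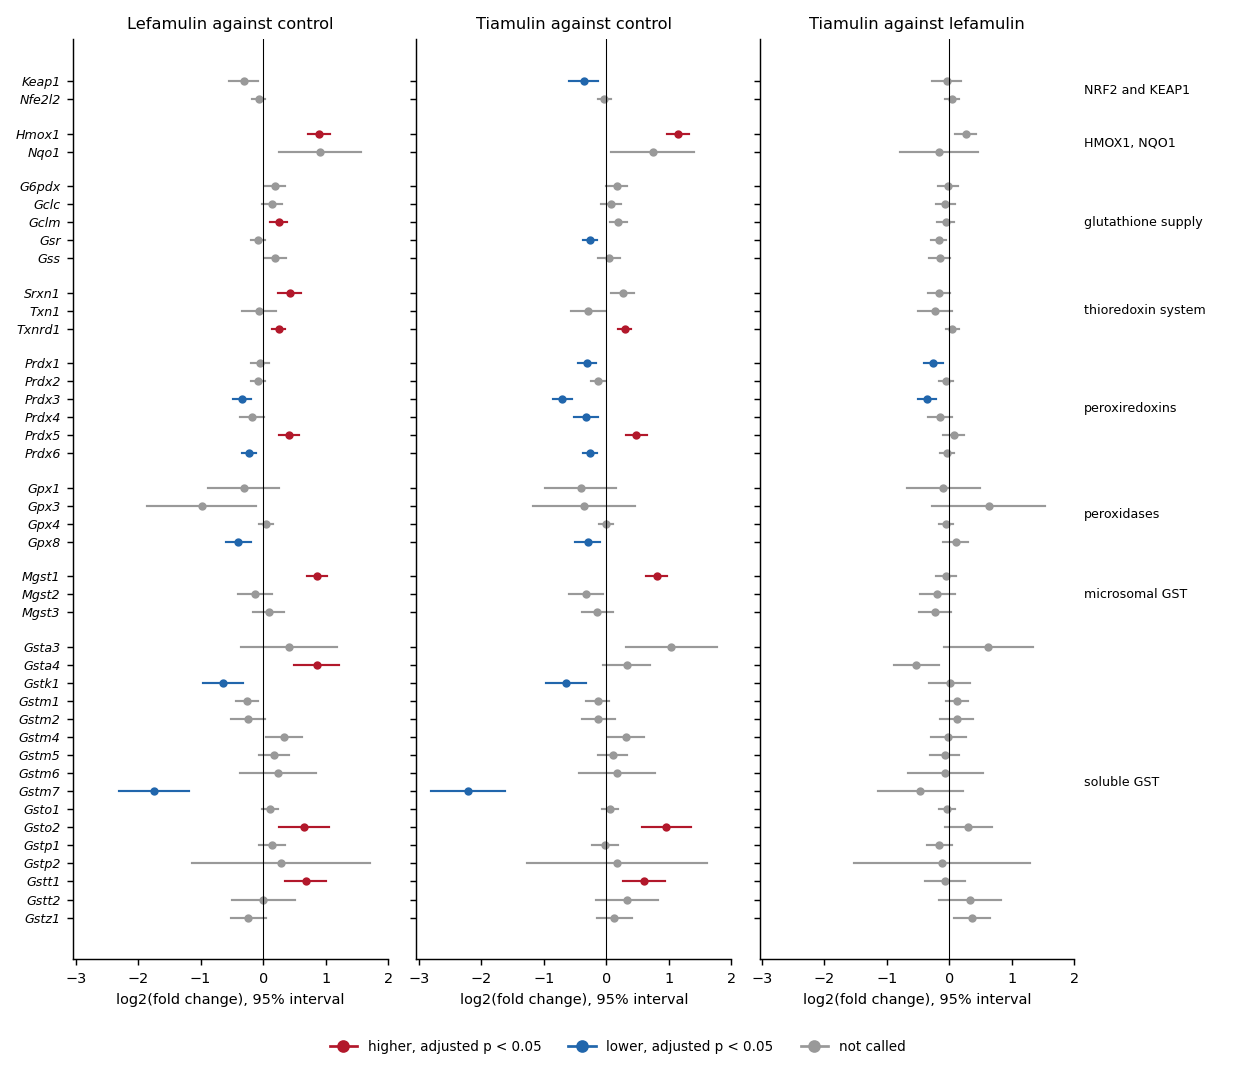
Log2(fold change) with its 95% interval for the 41 tested genes, grouped by role, for lefamulin against control, tiamulin against control and tiamulin against lefamulin. Red points rose and blue points fell at an adjusted p value below 0.05. Gstm7 lies farthest to the left, at -1.75 and -2.22, and Hmox1 and Mgst1 lie to the right under each drug.

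Among the regulators, the transcript of NRF2 itself was not called under either drug, except as lowered under lefamulin with the offsets for gene length and GC content (-0.11, adjusted p = 0.0454). Nfe2l2 stood at 177, 181 and 183 CPM in controls, at 172, 170 and 172 CPM under lefamulin and at 174, 179 and 177 CPM under tiamulin. Its log2(fold change) was -0.07 (95% interval -0.18 to 0.03, adjusted p = 0.372) under lefamulin and -0.03 (-0.14 to 0.08, adjusted p = 0.724) under tiamulin. Keap1, the adaptor that presents NRF2 for degradation, was at 40.8, 38.5 and 40.5 CPM in controls, at 30.7, 29.5 and 36.1 CPM under lefamulin and at 28.4, 36.7 and 28.2 CPM under tiamulin. All treated libraries lay below the controls, and lefamulin 3 and tiamulin 2 were the closest to them. Keap1 fell under tiamulin by 0.36 on the log2 scale (SE 0.11, adjusted p = 0.0341), a call lost in 10 of 19 alternatives, among them leaving out control 1, 2 or 3, lefamulin 1, tiamulin 1 or tiamulin 3 (adjusted p 0.0556 to 0.123). Under lefamulin its value was -0.31 (SE 0.11, adjusted p = 0.0703), which passed in 5 of 19 alternatives, among them leaving out tiamulin 2 (adjusted p = 0.0033). Keap1 overlaps the antisense gene Gm16754, and whether counting used the strand is not given in the sources used here.

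Hmox1, the heme oxygenase that breaks down heme and a classical NRF2 target, had the largest called rise of the 52 genes (ENSMUSG00000005413, deposited position chromosome 8, 75820249 to 75827217). It stood at 72.6, 68.5 and 64.8 CPM in controls, at 123, 131 and 128 CPM under lefamulin and at 143, 175 and 140 CPM under tiamulin. No library of one group overlapped another group, and tiamulin 2 was the highest of all. The log2(fold change) was 0.89 (SE 0.08, adjusted p = 7.84e-06) under lefamulin and 1.15 (SE 0.08, adjusted p = 7.00e-07) under tiamulin, or 1.86-fold and 2.22-fold. Nqo1, the quinone reductase, had 31, 34 and 12 counts in controls, 48, 46 and 41 counts under lefamulin and 42, 41 and 39 counts under tiamulin. The groups of treated libraries lay above the controls, and control 3 was far below the other controls. Its log2(fold change) of 0.91 (SE 0.31, adjusted p = 0.0657) under lefamulin and 0.74 (SE 0.31, adjusted p = 0.124) under tiamulin did not pass. The value under lefamulin passed in 6 of 19 alternatives, among them leaving out control 2 (1.18, adjusted p = 0.0493) or tiamulin 2 (adjusted p = 0.0267). That under tiamulin passed in 1, a replicate block with offsets for gene length and GC content (0.82, adjusted p = 0.0461). Without the low control 3 the values were 0.56 (adjusted p = 0.200) and 0.39 (adjusted p = 0.362).

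Of the 5 genes that make and regenerate glutathione, 1 rose under lefamulin and 1 fell under tiamulin. Gclm, the modifier subunit of the rate-limiting glutamate-cysteine ligase, stood at 120, 117 and 113 CPM in controls, at 129, 142 and 144 CPM under lefamulin and at 132, 127 and 140 CPM under tiamulin. Every treated library lay above every control. Gclm rose 1.19-fold under lefamulin (log2 0.25, SE 0.06, adjusted p = 0.0169), a call lost without control 2, control 3, lefamulin 2 or lefamulin 3 (adjusted p 0.0509 to 0.0930). Under tiamulin its value was 0.19 (SE 0.06, adjusted p = 0.0515). That value passed in 5 of 19 alternatives, among them leaving out lefamulin 1 (adjusted p = 0.0499) or tiamulin 2 (adjusted p = 0.0037). Gsr, the reductase that returns oxidized glutathione to its reduced form, was the gene of this group that fell. It was at 110, 110 and 109 CPM in controls, 105, 103 and 102 CPM under lefamulin and 89.0, 92.5 and 93.3 CPM under tiamulin. The 3 groups did not overlap, and the order was control, lefamulin, tiamulin. Gsr fell under tiamulin by 0.26 on the log2 scale (SE 0.05, adjusted p = 0.0045), and its value under lefamulin was -0.09 (adjusted p = 0.333), which passed with the offsets (-0.13, adjusted p = 0.0367).

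Gclc, the catalytic subunit of the same ligase, was at 63.4 to 69.5 CPM in controls, 68.8 to 77.1 CPM under lefamulin and 64.8 to 74.1 CPM under tiamulin, with log2(fold change) of 0.14 (95% interval -0.01 to 0.30) and 0.08 (-0.08 to 0.23). Gss, the synthetase that adds glycine, had values of 0.20 (adjusted p = 0.127) and 0.04 (adjusted p = 0.794). G6pdx, the first enzyme of the pentose phosphate pathway and a main source of NADPH, had values of 0.19 (adjusted p = 0.125) and 0.17 (adjusted p = 0.160). None of these 3 was called. Under lefamulin Gss passed in 4 and G6pdx in 2 of 19 alternatives, each time with leaving out tiamulin 2 among them (adjusted p = 0.0220 and 0.0314). Under tiamulin G6pdx passed in 1, without tiamulin 1 (0.25, adjusted p = 0.0342). Gss and G6pdx overlap genes on the opposite strand (Acss2 and Ikbkg).

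In the thioredoxin system Txnrd1 rose under each drug, Srxn1 rose under lefamulin, and thioredoxin itself was not called. Txnrd1, the cytosolic thioredoxin reductase, stood at 344, 340 and 335 CPM in controls, 401, 394 and 414 CPM under lefamulin and 404, 434 and 409 CPM under tiamulin. The treated libraries all lay above the controls, and the rise was 1.19-fold (log2 0.25, SE 0.05, adjusted p = 0.0050) and 1.22-fold (log2 0.29, SE 0.05, adjusted p = 0.0011). Srxn1, the sulfiredoxin that repairs overoxidized peroxiredoxins, was at 28.3, 28.1 and 30.9 CPM in controls, 39.4, 42.5 and 35.4 CPM under lefamulin and 34.8, 35.7 and 34.0 CPM under tiamulin. It rose under lefamulin 1.34-fold (log2 0.43, SE 0.08, adjusted p = 0.0042). Under tiamulin, where all 3 libraries also lay above the controls, its value was 0.26 (SE 0.08, adjusted p = 0.0504). That value passed in 7 of 19 alternatives, among them leaving out lefamulin 3 (adjusted p = 0.0487) or tiamulin 2 (adjusted p = 0.0450). Txn1 was at 355 to 403 CPM in controls, 343 to 386 CPM under lefamulin, and 336, 233 and 353 CPM under tiamulin, where library 2 was the low one. Its values were -0.07 (adjusted p = 0.781) and -0.30 (adjusted p = 0.131). The latter passed in 4 of 19 alternatives, and was -0.41 without tiamulin 3 (adjusted p = 0.0446) and -0.13 without tiamulin 2 (adjusted p = 0.083).

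The peroxiredoxins, which reduce peroxides with a reactive cysteine, moved in both directions within the family. Prdx3, the mitochondrial member, fell most (ENSMUSG00000024997, deposited position chromosome 19, 60852489 to 60862994). It was at 128, 123 and 128 CPM in controls, 99.6, 100.5 and 98.4 CPM under lefamulin and 76.7, 70.2 and 85.4 CPM under tiamulin. The 3 groups were fully separate, with tiamulin lowest. Prdx3 fell to 78.9% of control under lefamulin (log2 -0.34, SE 0.07, adjusted p = 0.0044) and to 61.4% under tiamulin (log2 -0.70, SE 0.07, adjusted p = 9.41e-06). Prdx5, which acts in mitochondria, peroxisomes and cytosol, went the other way, from 65.1, 70.0 and 62.9 CPM in controls to 94.95, 82.2 and 86.7 CPM under lefamulin and 97.0, 84.0 and 95.5 CPM under tiamulin. It rose by 0.41 (SE 0.08, adjusted p = 0.0026) and 0.48 (SE 0.08, adjusted p = 0.00063) on the log2 scale. Prdx5 shares 28.2% of its 75-base windows with Trmt112, which overlaps it on the opposite strand, so part of its counts could belong to that gene.

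Prdx6, the member with a single active cysteine and a phospholipase activity, was at 489, 466 and 492 CPM in controls, 419, 412 and 409 CPM under lefamulin and 389, 420 and 395 CPM under tiamulin. It fell by 0.22 (SE 0.05, adjusted p = 0.0102) and 0.26 (SE 0.05, adjusted p = 0.0026) on the log2 scale, with every treated library below the controls, and the call under lefamulin was lost without control 3, lefamulin 2 or lefamulin 3 (adjusted p 0.0529 to 0.0633). Prdx1 stood at 684, 717 and 703 CPM in controls, 677, 683 and 672 CPM under lefamulin and 590, 494 and 617 CPM under tiamulin, with tiamulin 2 the lowest. Prdx1 fell under tiamulin by 0.31 (SE 0.07, adjusted p = 0.0070), and its value under lefamulin was -0.05 (95% interval -0.20 to 0.10, adjusted p = 0.696), or -0.10 with the offsets, where it was called as lowered (adjusted p = 0.0216). Prdx4, the member of the endoplasmic reticulum, fell under tiamulin by 0.33 on the log2 scale (SE 0.09, adjusted p = 0.0225), from 40.6 to 42.7 CPM in controls to 29.4 to 35.8 CPM. That call was lost in 4 of 19 alternatives, among them leaving out control 1, 2 or 3 (adjusted p 0.0563 to 0.0720). The value under lefamulin was -0.18 (adjusted p = 0.231), which passed with the offsets (-0.24, adjusted p = 0.0181). Prdx2, a cytosolic member, had values of -0.08 (adjusted p = 0.359) and -0.13 (adjusted p = 0.112), and it overlaps Junb and Rnaseh2a on the opposite strand. Summed over the 6 genes, peroxiredoxin reads made up 1583 ± 5.28 CPM in controls, 1472 ± 14.0 CPM under lefamulin and 1323 ± 66.3 CPM under tiamulin (SD, n = 3), or 93.0% and 83.6% of control. Prdx1 and Prdx6 held most of these reads, and Prdx5 rose within the sum. Tiamulin 2 was the lowest, at 1251 CPM, against 1337.5 and 1381.3 CPM for tiamulin 1 and 3.

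**Figure D3:**
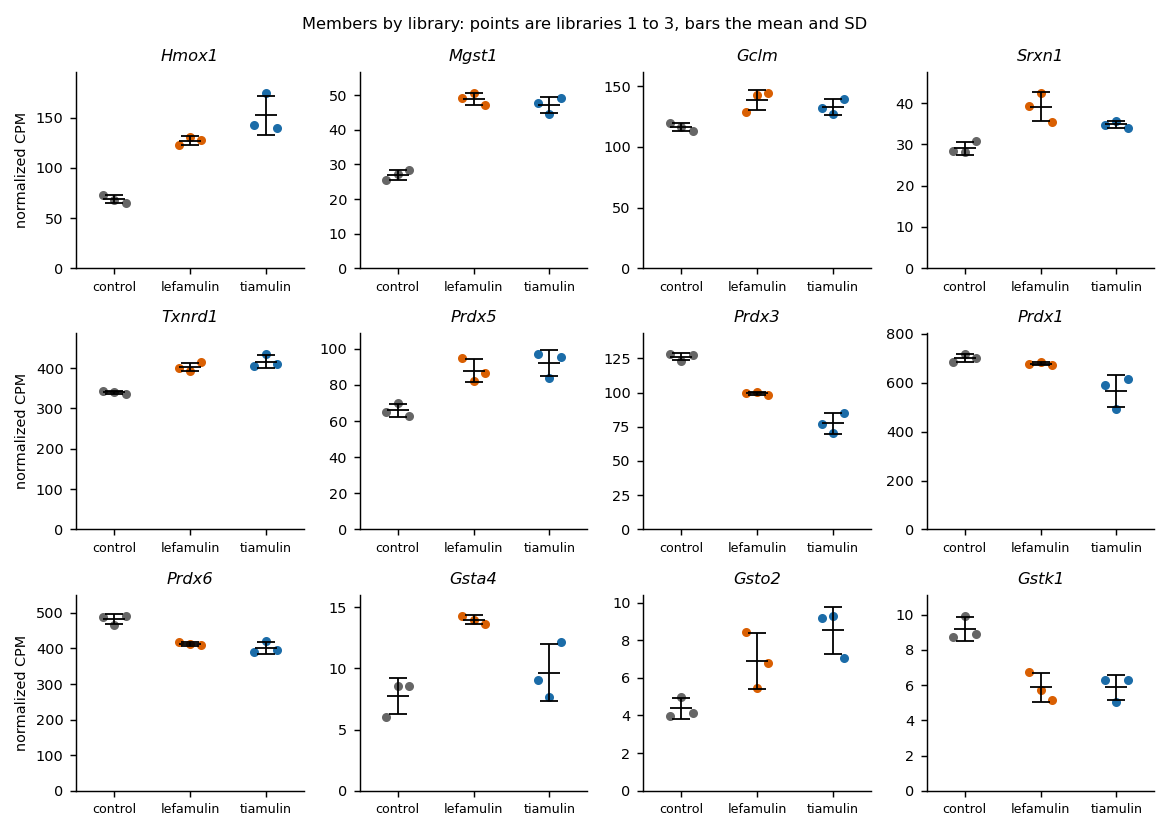
Normalized CPM in each library (points, libraries 1 to 3 from left to right) with the mean and SD of each group for 12 of the called genes, on axes that start at 0. Hmox1, Mgst1, Txnrd1 and Prdx5 lie above the controls under each drug. Prdx3 steps down from control to lefamulin to tiamulin, and Prdx1 is below control under tiamulin, where library 2 is lowest at 494 CPM.

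Of the 8 glutathione peroxidases 4 had enough counts to be tested, and Gpx8, a peroxidase of the endoplasmic reticulum membrane, was the one that fell. It was at 50.1, 54.7 and 50.7 CPM in controls, 46.1, 35.5 and 36.5 CPM under lefamulin and 41.6, 42.8 and 42.2 CPM under tiamulin, with lefamulin 1 closest to the controls. Gpx8 fell by 0.40 (SE 0.09, adjusted p = 0.0114) and 0.30 (SE 0.09, adjusted p = 0.0417) on the log2 scale. The call under lefamulin was lost without control 2, lefamulin 2 or lefamulin 3 (adjusted p 0.0517 to 0.0758), and that under tiamulin in 11 of 19 alternatives, among them leaving out control 1, 2 or 3, lefamulin 3, tiamulin 1 or tiamulin 3 (adjusted p 0.0546 to 0.153). Gpx4, which reduces lipid peroxides in membranes and protects cells from ferroptosis, was at 180 to 187 CPM in controls, 186 to 196 CPM under lefamulin and 179 to 188 CPM under tiamulin. Its log2(fold change) was 0.05 (95% interval -0.06 to 0.16) and -0.01 (-0.12 to 0.10). Gpx1, with 29 to 62 counts per library, and Gpx3, the secreted peroxidase, with 7 to 21 counts, had wide intervals and were not called. The family summed to 240 ± 1.84, 233 ± 11.4 and 229 ± 4.07 CPM in control, lefamulin and tiamulin libraries.

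Of the 3 microsomal GSTs Mgst1 rose and the other two were not called. Mgst1, a membrane-bound GST with peroxidase activity in the endoplasmic reticulum and outer mitochondrial membrane, is at deposited position chromosome 6, 138117314 to 138133753 (ENSMUSG00000008540). It stood at 25.5, 27.2 and 28.3 CPM in controls, 49.1, 50.7 and 47.2 CPM under lefamulin and 47.8, 44.6 and 49.2 CPM under tiamulin. Every treated library was far above every control, and the 2 drug groups overlapped. The rise was 1.81-fold under lefamulin (log2 0.86, SE 0.08, adjusted p = 5.12e-06) and 1.75-fold under tiamulin (log2 0.81, SE 0.08, adjusted p = 6.84e-06). Mgst2 had values of -0.13 (adjusted p = 0.547) and -0.33 (adjusted p = 0.102), and Mgst3 of 0.09 (adjusted p = 0.675) and -0.14 (adjusted p = 0.460).

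Among the soluble GSTs, 16 of 23 were tested, and the call of largest size was the fall of Gstm7, a mu class gene (ENSMUSG00000004035, deposited position chromosome 3, 107833650 to 107839133, minus strand). It had 84, 77 and 72 counts in controls, 27, 23 and 14 counts under lefamulin and 11, 17 and 19 counts under tiamulin. No treated library came near a control. The log2(fold change) was -1.75 (SE 0.26, adjusted p = 0.00056) under lefamulin and -2.22 (SE 0.28, adjusted p = 8.34e-05) under tiamulin, leaving 29.8% and 21.5% of control, and none of its 75-base windows is shared with another gene. The 7 mu class genes lie side by side over 149 kb, in the order Gstm5, Gstm7, Gstm6, Gstm3, Gstm2, Gstm1, Gstm4. Of its neighbours, Gstm3 had at most 3 counts in a library and was not tested, and none of the other 5 was called. Their log2(fold change) ran from -0.26 (Gstm1, adjusted p = 0.0562) to 0.33 (Gstm4, adjusted p = 0.118) under lefamulin and from -0.14 (Gstm1, adjusted p = 0.289) to 0.31 (Gstm4, adjusted p = 0.127) under tiamulin. Whether Gstm7 differed from its neighbours was not tested. Since Gstm1 and Gstm2 hold most mu class reads, the summed level was 89.6 ± 4.20 CPM in controls, 81.3 ± 2.31 CPM under lefamulin and 84.1 ± 4.93 CPM under tiamulin (SD, n = 3).

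**Figure D4:**
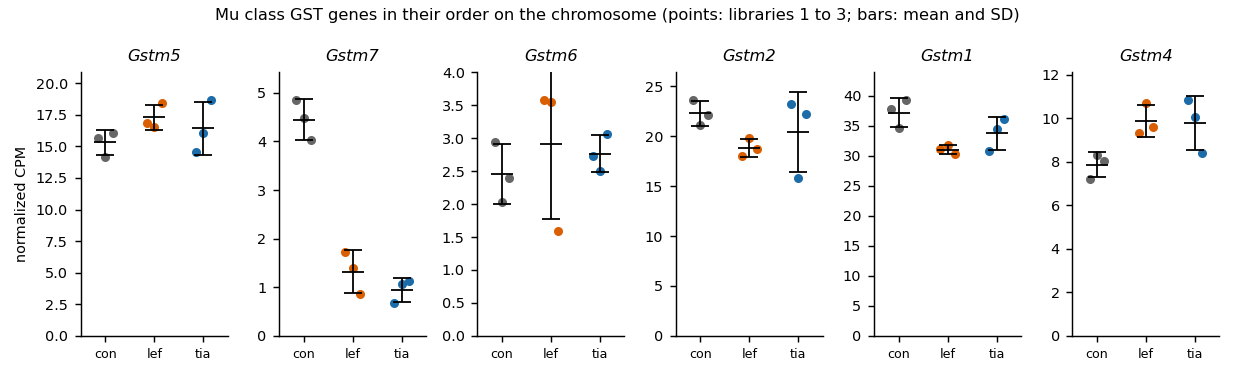
Normalized CPM in each library (points) with the mean and SD of each group for the 6 tested mu class GST genes, in their order along chromosome 3, on axes that start at 0. Gstm7 falls from above 4 CPM in each control to below 2 CPM in each treated library, and the other 5 were not called.

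In the other GST classes Gsta4, Gstt1 and Gsto2 rose under lefamulin, Gstt1 and Gsto2 rose under tiamulin, and Gstk1 fell under each drug. Of all 16 tested soluble GSTs, 3 rose and 2 fell under lefamulin, and 2 rose and 2 fell under tiamulin. Over all tested genes 7.09% rose and 6.00% fell under lefamulin, and 9.08% and 7.34% under tiamulin. Gsta4, an alpha class enzyme that conjugates the lipid peroxidation product hydroxynonenal, was at 6.00, 8.56 and 8.55 CPM in controls, 14.3, 14.0 and 13.6 CPM under lefamulin and 9.07, 7.68 and 12.2 CPM under tiamulin. The lefamulin libraries stood above all others, while tiamulin and control libraries overlapped. Gsta4 rose under lefamulin by 0.86 (SE 0.17, adjusted p = 0.0041), and its value under tiamulin was 0.33 (SE 0.17, adjusted p = 0.231), 0.46 without tiamulin 2 (adjusted p = 0.0327), 0.18 without control 1 (adjusted p = 0.572) and 0.12 without tiamulin 3 (adjusted p = 0.687). Gstt1, a theta class gene, was at 3.58 to 4.19 CPM in controls, 5.58 to 6.90 CPM under lefamulin and 5.48 to 6.36 CPM under tiamulin, and rose by 0.68 (SE 0.16, adjusted p = 0.0105) and 0.61 (SE 0.16, adjusted p = 0.0155). The call under tiamulin was lost without control 1 (0.55, adjusted p = 0.0606) or tiamulin 3 (0.56, adjusted p = 0.0516).

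Gsto2, an omega class gene with dehydroascorbate reductase activity, had 69, 86 and 74 counts in controls, 132, 91 and 111 counts under lefamulin and 151, 149 and 120 counts under tiamulin. It rose by 0.66 (SE 0.19, adjusted p = 0.0323) and 0.96 (SE 0.18, adjusted p = 0.0023) on the log2 scale. The call under lefamulin was lost in 7 of 19 alternatives, among them leaving out control 1, control 3, lefamulin 1 or lefamulin 3 (adjusted p 0.0857 to 0.152), and Gsto2 overlaps Cfap43 on the opposite strand. Gstk1, the kappa class GST of mitochondria and peroxisomes, had 151, 171 and 159 counts in controls, 106, 95 and 84 counts under lefamulin and 103, 81 and 107 counts under tiamulin. Gstk1 fell to 64.0% and 64.1% of control (log2 -0.64, SE 0.15 in both, adjusted p = 0.0106 and 0.0083), with no overlap of treated and control libraries. The call under lefamulin was lost without lefamulin 2 (adjusted p = 0.0503) or lefamulin 3 (adjusted p = 0.0587). The abundant Gsto1 and Gstp1 were not called. Gsto1 had values of 0.11 (95% interval -0.02 to 0.23) and 0.07 (-0.06 to 0.19), and Gstp1 of 0.14 (-0.06 to 0.35) and -0.02 (-0.22 to 0.19).

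In all, 17 tested genes that were neither called nor among the 12 core pathway genes (Gsta3, Gstm1, Gstm2, Gstm4, Gstm5, Gstm6, Gsto1, Gstp1, Gstp2, Gstt2, Gstz1, Gpx1, Gpx3, Gpx4, Mgst2, Mgst3 and Prdx2) had log2(fold change) of -0.99 to 0.42 with lefamulin and of -0.41 to 1.04 with tiamulin. The lower end was Gpx3 with lefamulin and Gpx1 with tiamulin, and the upper end was Gsta3 with each drug, all genes with few counts. Gsta3, an alpha class GST, had 14, 23 and 18 counts in controls and 34, 38 and 35 counts under tiamulin (adjusted p = 0.0516). The 11 genes with too few counts to test were Gsta1, Gsta2, Gsta5, Gstm3, Gstp3, Gstt3, Gstt4, Gpx2, Gpx5, Gpx6 and Gpx7, with at most 7 counts in any library and 64 counts in all 9 libraries together. Gpx6 had none, where 3 counts correspond to 0.168 to 0.192 CPM, and this limit covers counting error only. The 52 genes summed to 3954 ± 21.7 CPM in controls, 4038 ± 75.6 CPM under lefamulin and 3806 ± 133 CPM under tiamulin.

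The drugs, given at the same dose for the same time, were also compared with each other over these genes in the same fit. No gene was higher under tiamulin than under lefamulin at an adjusted p value below 0.05 (2.85% of all tested genes were), where 2 genes had an unadjusted p value below 0.05. DESeq2 called 1 as higher, beside 619 (2.06%) of the 30014 genes with any count, where the main fit called 413 of 14510. Prdx3 and Prdx1 were lower (2.05% of all tested genes were), and none of the 41 passed as a DEG (0.227% of all). Prdx3 was lower under tiamulin by 0.36 on the log2 scale (95% interval -0.51 to -0.21, adjusted p = 0.0093), at 77.8% of its level under lefamulin, and the call was lost without lefamulin 2 (-0.35, adjusted p = 0.0581). Prdx1 was lower by 0.26 (95% interval -0.40 to -0.11, adjusted p = 0.0472), a call lost in 11 of 19 alternatives, among them leaving out any of the 3 controls, any of the 3 lefamulin libraries or tiamulin 1 (adjusted p 0.0636 to 0.162). The count of 2 became 0 without lefamulin 2, 4 without tiamulin 2 (Gsr and Gss were added), and 1 without control 1, 2 or 3, lefamulin 1, lefamulin 3 or tiamulin 1. Over all tested genes 3.86% were lower without tiamulin 2 and 0.526% without lefamulin 2. With the offsets for gene length and GC content 2 of these genes were higher and 4 lower, beside 6.69% and 6.26% of all.

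The other differences between the drugs did not pass, and their intervals set how large they may be. Hmox1 was higher under tiamulin by 0.26 (95% interval 0.09 to 0.43, adjusted p = 0.0792), with the tiamulin libraries above the lefamulin libraries. It passed in 5 of 19 alternatives, among them DESeq2 (adjusted p = 0.0478) and leaving out tiamulin 3 (0.32, adjusted p = 0.0383). Without tiamulin 2 the value was 0.15 (adjusted p = 0.092). Gsta4 was at -0.53 (-0.89 to -0.17, adjusted p = 0.0823), and passed in 4 of 19 alternatives, among them leaving out tiamulin 3 (-0.74, adjusted p = 0.0205). Gsr was at -0.17 (-0.29 to -0.06, adjusted p = 0.0829), and passed with the offsets (adjusted p = 0.0291) and without tiamulin 2 (adjusted p = 0.0334). The intervals were narrow for Txnrd1 (-0.06 to 0.15), Nfe2l2 (-0.06 to 0.15), Gclm (-0.19 to 0.07), Mgst1 (-0.21 to 0.10) and Prdx6 (-0.15 to 0.07). They were wide for Gstm7 (-1.15 to 0.21) and Nqo1 (-0.79 to 0.45).

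The 10 genes whose promoter window held the core TGACNNNGC moved in both directions. Under lefamulin 4 of them rose (Gclm, Mgst1, Srxn1 and Txnrd1), Gstm7 fell and 5 were not called, with a median log2(fold change) of 0.22. Under tiamulin Mgst1 and Txnrd1 rose, Gstm7 and Prdx1 fell and 6 were not called, with a median of 0.18. Over all tested genes 7.09% rose and 6.00% fell under lefamulin, and 9.08% and 7.34% under tiamulin. Of the genes with a listed promoter and no core, 25 were tested, of which 3 rose and 3 fell under lefamulin (median -0.07) and 3 rose and 5 fell under tiamulin (median -0.13). Hmox1, Gsr, Gclc, Gsta4, Gsta5, Gstt2 and Prdx6 had no listed promoter and are in neither set. Among them Hmox1 rose and Prdx6 fell under each drug, Gsta4 rose under lefamulin and Gsr fell under tiamulin. The difference between the genes with and without the core was not tested.

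Other genes of the pathway came from 4 lists outside the 52 genes, and their counts stand beside 7.09% raised and 6.00% lowered of all tested genes under lefamulin and 9.08% and 7.34% under tiamulin. Of 24 tested genes that supply or turn over glutathione, 6 rose (25.0%) and none fell under lefamulin, and 7 rose (29.2%) and 2 fell (8.33%) under tiamulin (median log2 0.18 and 0.17). Cth, the cystathionine gamma-lyase that makes cysteine, rose from 23.8 ± 1.39 CPM in controls to 60.0 ± 2.36 CPM under lefamulin (log2 1.34, adjusted p = 4.15e-08) and 78.6 ± 0.642 CPM under tiamulin (log2 1.72, adjusted p = 2.74e-09). Chac1, which degrades glutathione, rose by 1.34 (adjusted p = 4.15e-07) and 1.71 (adjusted p = 3.28e-08). Slc3a2, the heavy chain shared by several amino acid transporters, rose by 0.71 and 0.74, and Hpgds, the sigma class GST that makes prostaglandin D, by 0.62 and 0.61 (adjusted p at most 0.00035). Of these, Cth, Chac1 and Slc3a2 are also known as targets of the transcription factor ATF4.

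Of 26 tested further NRF2 targets, 9 rose (34.6%, with 7.09% of all tested genes) and 2 fell (7.69%, with 6.00% of all) under lefamulin, and 7 rose (26.9%, with 9.08% of all) and 3 fell (11.5%, with 7.34% of all) under tiamulin (median log2 0.12 and 0.13). Slc7a11, the cystine importer that limits glutathione synthesis, rose from 474 ± 23.6 CPM to 680 ± 36.8 and 823 ± 80.9 CPM, by 0.52 (adjusted p = 0.00023) and 0.80 (adjusted p = 4.03e-06). Fth1, the ferritin heavy chain that stores iron, rose by 0.57 (adjusted p = 3.97e-06) and 0.38 (adjusted p = 0.00011). Slc40a1, the iron exporter ferroportin, fell by 0.79 (adjusted p = 8.03e-06) and 0.65 (adjusted p = 3.64e-05), and Aox1, an aldehyde oxidase, by 0.63 (adjusted p = 0.0017) and 0.52 (adjusted p = 0.0046), so genes of this list moved in both directions. The count of 11 called under lefamulin became 7 without any one of the controls or lefamulin libraries, where 3.73% to 5.08% of all tested genes were raised and 2.86% to 4.52% lowered.

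Of 24 tested other antioxidant genes, 3 rose (12.5%, with 7.09% of all tested genes) and 1 fell (4.17%, with 6.00% of all) under lefamulin, and 5 rose (20.8%, with 9.08% of all) and 1 fell (4.17%, with 7.34% of all) under tiamulin (median log2 0.06 in both). Sesn2, a stress-induced sestrin, rose by 0.62 (adjusted p = 0.00063) and 0.55 (adjusted p = 0.0012). Cat, the peroxisomal catalase, rose by 0.29 (adjusted p = 0.0117) and 0.43 (adjusted p = 0.00068), and the former was lost without control 3 (adjusted p = 0.0638) or lefamulin 1 (adjusted p = 0.0543). The count of 4 under lefamulin ran from 1 without control 3 (3.73% of all tested genes raised and 2.96% lowered) to 8 without tiamulin 2 (12.2% and 12.7%). It was 2 without control 1 (4.26% and 3.46%) or any lefamulin library (3.84% to 4.43% and 2.86% to 3.35%). The count of 6 under tiamulin was 3 without control 1 (6.74% of all tested genes raised and 5.23% lowered) or control 3 (5.60% and 4.25%). Of 15 tested regulators of the pathway, 3 rose under lefamulin (beside 7.09% of all tested genes) and 4 under tiamulin (beside 9.08% of all), and none fell (6.00% and 7.34% of all did; median log2 0.04 and 0.13). Nfe2l1, the NRF2 relative that controls proteasome genes, rose by 0.39 (adjusted p = 0.0013) and 0.52 (adjusted p = 0.00011). Mafk, a small MAF partner of NRF2, rose by 0.48 (adjusted p = 9.03e-05) and 0.39 (adjusted p = 0.00043). Sqstm1, the autophagy receptor p62 that binds KEAP1, rose by 0.26 (adjusted p = 0.0150) and 0.62 (adjusted p = 1.76e-05), and the former was lost without control 2, control 3, lefamulin 1 or lefamulin 2 (adjusted p 0.0577 to 0.0961).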

How the data were processed

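RNA was taken from Hepa1-6 cells with TRIzol, per the labels, and sequenced in 9 libraries. The submitters' processing notes name CASAVA 1.8, fastp, HISAT2 2.0.5, featureCounts 1.5.0-p3, DESeq2 1.20.0 and the build mm10, with no role or order. The authors deposited raw, unnormalized whole-number counts for each gene, and FPKM values, which are those counts divided by gene length and a library total. Strand use and the treatment of reads with several matches are not given in the sources used here, so overlapping or near-identical genes could share reads. The deposited gene positions equal those of GRCm38 for only 2.76% of 52036 nuclear genes. Which build they are on was not settled, and they are printed as deposited and cannot be compared with the promoter positions. Promoters are RefSeq's on GRCm38.p6, matched by symbol.

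Counts were filtered with filterByExpr (14510 genes), scaled by TMM and tested by the quasi-likelihood test of edgeR 4.0.16 (R 4.3.3), in 1 fit of the 9 libraries with group as its term. SE and 95% intervals come from that test, p values are two-sided with Benjamini-Hochberg adjustment over all tested genes, and a floor is 3 counts. CPM are TMM-normalized for single genes and families and divided by the library total for marker sums. Alternatives used DESeq2 1.42.0, limma 3.58.1 on log2(FPKM + 1) and log2(FPKM + 0.1), other filters and size factors, a replicate block, offsets for gene length and GC content (mgcv 1.9.3; GC known for 14242 tested genes) and each library left out. The fit was tested on simulated counts. Shared sequence is the share of 75-base windows of the longest transcript found in another gene. Genes were named if called in any comparison, with 12 core pathway genes named regardless, and from each list at most 4 genes called under both drugs with the largest mean change. The members, the lists and this rule were chosen with earlier results of these data known. For 2 of the marker lists, 1 gene each is not reported here and was left out of the sums.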

Additional observations from a re-analysis of the deposited data

How the results depend on the processing

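Of 31 calls for named members, 20 held under all 19 alternatives, 11 were lost under at least 1 and none changed sign. Of 41 values not called, 18 were called under at least 1. Of 26 values of list genes, 24 held throughout; the alternatives for lists were added after seeing the data.

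With offsets for gene length and GC content, 12 members fell under lefamulin (9 with a replicate block added), beside 12.5% and 11.4% of all tested genes. For tiamulin against lefamulin the offsets gave 2 higher (2 with the block) and 4 lower, beside 6.69% higher (5.75% with the block) and 6.26% lower of all tested genes. DESeq2 and no filter on low counts each gave 1 higher, beside 2.06% and 2.62% of the 30014 genes with any count. The fit of only the 2 groups compared, the replicate block and limma on log2(FPKM + 1) or log2(FPKM + 0.1) each gave 1 lower, beside 0.783%, 0.675%, 1.63% and 1.63% of all. The replicate block with offsets gave 10 members raised under tiamulin, beside 12.2% of all tested genes. For the other antioxidant genes, 8 (2 groups) or 7 (block with offsets) were called under lefamulin, and 11 (offsets) or 3 (replicate block) under tiamulin. Over all tested genes, 12.4% were raised and 12.5% lowered, or 10.5% and 11.4%, in these fits under lefamulin. Under tiamulin the shares were 13.1% and 13.9% (offsets) or 7.04% and 5.44% (replicate block). The causes were not tested.

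Same-number correlations of deviations from group means ran from -0.19 to 0.04, and those between different numbers from -0.12 to 0.19. These values cannot show whether the libraries were paired, because the deviations also followed GC content. The replicate block, which uses degrees of freedom with or without pairing, lowered the calls over all genes under tiamulin from 1318 and 1065 to 1021 and 790. Among named members it lost the calls of Prdx4 (-0.33, adjusted p = 0.0510), Keap1 (adjusted p = 0.0709) and Gpx8 (adjusted p = 0.0796) under tiamulin, Gsto2 under lefamulin (adjusted p = 0.0598) and Prdx1 between the drugs (adjusted p = 0.104).

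Leaving out each library in turn gave 2 to 8 members lowered under lefamulin, beside 2.86% to 12.7% of all tested genes. For tiamulin against lefamulin it gave 0 to 1 higher and 0 to 4 lower, beside 0.828% to 4.93% and 0.526% to 3.86% of all. For the lists it gave 7 to 16 NRF2 targets under lefamulin, and 1 to 8 and 3 to 7 other antioxidant genes under lefamulin and tiamulin. Over all tested genes 3.73% to 12.2% were then raised and 2.86% to 12.7% lowered under lefamulin, and 5.60% to 11.7% and 4.25% to 11.3% under tiamulin.

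Uncalled values near 0 changed sign. For tiamulin against lefamulin Gstk1 was -0.0020 with at least 10 counts in every library, and Mgst1 was 0.0372 with the offsets and 0.0375 with the block and offsets. Without single libraries the ranges were -0.0634 to 0.0625 for G6pdx, -0.0857 to 0.11 for Gstk1, -0.15 to 0.0032 for Gstt1 and -0.18 to 0.0465 for Keap1, and -0.0254 to 0.10 for Gss under tiamulin.

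Genes with few counts, such as Nqo1, Gpx1, Gpx3 and Gsta3, carry counting error that widens their intervals, and 3 libraries a group limit the precision of all values.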
